A study of Mus musculus with 9 samples.

Results

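Cells sorted for a reporter on the odorant receptor Olfr1507 were compared with cells sorted for a reporter on Olfr160 for the RNA of all genes outside the Olfr symbols. The expected-count table holds 55291 genes, and the 1408 with symbols beginning with Olfr were set aside, which left 53883 genes. Of these, 15708 had enough counts to be tested. Mice of the Olfr1507 group had the genotype Olfr1507-IRES-GFP and those of the Olfr160 group Olfr160-IRES-mCherry, so that the receptor transcript also carried the coding sequence of a green or a red fluorescent protein. In both groups cells of the main olfactory epithelium were freed with papain, and cells bright for the reporter and low in DAPI, a dye that enters dead cells, were collected by flow cytometry. Polyadenylated RNA was made into 3 libraries per group with a low-input kit, while the series' design text speaks of duplicates. The labels give no age, sex or strain and do not say if the 3 libraries are from different animals. The p-values thus speak only of the spread among the samples at hand, and that spread may be technical. The receptor and the reporter colour change together, and their parts in a difference cannot be told apart.

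An olfactory sensory neuron transcribes a single odorant receptor allele. Odorant binding activates the G protein alpha subunit Golf and adenylyl cyclase 3, and cyclic AMP then opens a cyclic nucleotide-gated channel, followed by a calcium-activated chloride channel. The epithelium is divided into zones: Olfr160, also called M72, is a receptor of the dorsal zone, and Olfr1507, also called MOR28, of the ventral zone. Dorsal and ventral neurons are known to differ in enzymes and in adhesion and guidance molecules, and neurons with different receptors differ in genes that follow their level of activity. Supporting (sustentacular) cells, Bowman's glands, basal stem cells and immune cells lie beside the neurons and can enter a sort.

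The Olfr160 libraries held far less of their tagged receptor than the Olfr1507 libraries. The tagged receptor made up 94.7%, 85.1% and 91.7% of the summed Olfr counts in the Olfr1507 libraries 1 to 3, but 2.08%, 4.54% and 10.1% in the Olfr160 libraries 1 to 3. Most receptor RNA in the libraries labelled Olfr160 thus came from other Olfr genes, although they held the defining transcripts of mature neurons, with at least 7148 counts each on Omp, Cnga2, Adcy3 and Gnal. Library 3 was thus the purest Olfr160 library by this measure, and changes are also given against it below. It is 1 of the 3 libraries behind each call, so it is not an independent check. The 16 markers of mature olfactory neurons took 9.49% to 9.57% of all counts in Olfr1507 and 3.62%, 4.45% and 5.7% in Olfr160 libraries 1 to 3, and the 30 sustentacular and gland markers took 0.239% to 0.327% in Olfr1507 and 5.53%, 4.92% and 3.13% in Olfr160. Basal cell markers took 0.000632% to 0.0013% against 0.0386% to 0.0839%, immune and red blood cell markers 0.000837% to 0.00154% against 0.0433% to 0.156%, glia and stroma markers 0.00174% to 0.00223% against 0.0633% to 0.115%, microvillar cell markers 0.00597% to 0.00778% against 0.0628% to 0.129%, and respiratory markers 0.218% to 0.225% against 0.418% to 0.755%. Immature neuron markers, at 0.328% to 0.373% and 0.394% to 0.504%, and atypical chemosensory neuron markers, at 0.0137% to 0.0179% and 0.0212% to 0.0486%, were also lower in every Olfr1507 library than in any Olfr160 library. The immature neuron markers were divided, however: in the test given below 5 of 18 were higher in Olfr1507 and 9 lower. Dcx had 4495, 7405 and 4164 counts in the Olfr1507 libraries and 2185, 3295 and 3356 in the Olfr160 libraries. Gng8 had 10, 37 and 14 against 96, 153 and 112. The respiratory markers were divided too, with 7 of 14 higher in Olfr1507 and 5 lower. Most of their summed counts in Olfr160 were on Cyp2f2, with 233198 counts over the Olfr160 libraries and 4784 over the Olfr1507 libraries. Csf1r (macrophages) had 0 counts in all 3 Olfr1507 libraries, where C1qa had 1, 2 and 0. In bulk samples fewer cells of a type and less RNA per cell cannot be told apart.

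Of the tested genes 47.1% differed between the groups, and those lower in Olfr1507 differed by more than those higher in it. With edgeR's quasi-likelihood test and a Benjamini-Hochberg adjusted p threshold of 0.05, 3397 genes (21.6% of those tested) were higher in Olfr1507 and 4008 (25.5%) were lower. The higher genes had a median log2 fold change of 0.77, and 1050 of them differed at least 2-fold, 198 at least 4-fold and 38 at least 16-fold. The lower genes had a median of -4.43 (-4.23 with the 505 of them that had 0 counts in all Olfr1507 libraries set at 3 counts over the group), and 3563, 2995 and 2146 passed the same folds. The libraries of the groups did not overlap for 3372 of the higher and 3974 of the lower genes; among all tested genes every Olfr1507 library lay above every Olfr160 library for 30.3% and below for 34.6%.

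Nearly all of these differences had the same direction against Olfr160 library 3, and 41.5% of the higher and 41.7% of the lower genes also passed the test with that single library. Library 3 lay outside the range of the Olfr1507 libraries, on the side of the difference, for 3375 of the 3397 higher genes and 3993 of the 4008 lower genes. Library 3 is itself 1 of the 3 libraries behind these calls. As the groups did not overlap for most called genes, its side was largely fixed in advance. When Olfr160 libraries 1 and 2 were left out and library 3 was assumed to vary like the other groups, 1410 of the higher genes (8.98% of all tested genes) and 1672 of the lower genes (10.6%) passed again with the same sign. Of all tested genes 9.05% were higher and 10.8% lower in that fit. The sign against library 3 was opposite for 2 of the lower genes and 0 of the higher genes. The medians were 0.63 and -3.9 against library 3, so the differences were somewhat smaller there in both directions. Below, "passed with library 3" means passing in that second fit.

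**Figure D1:**
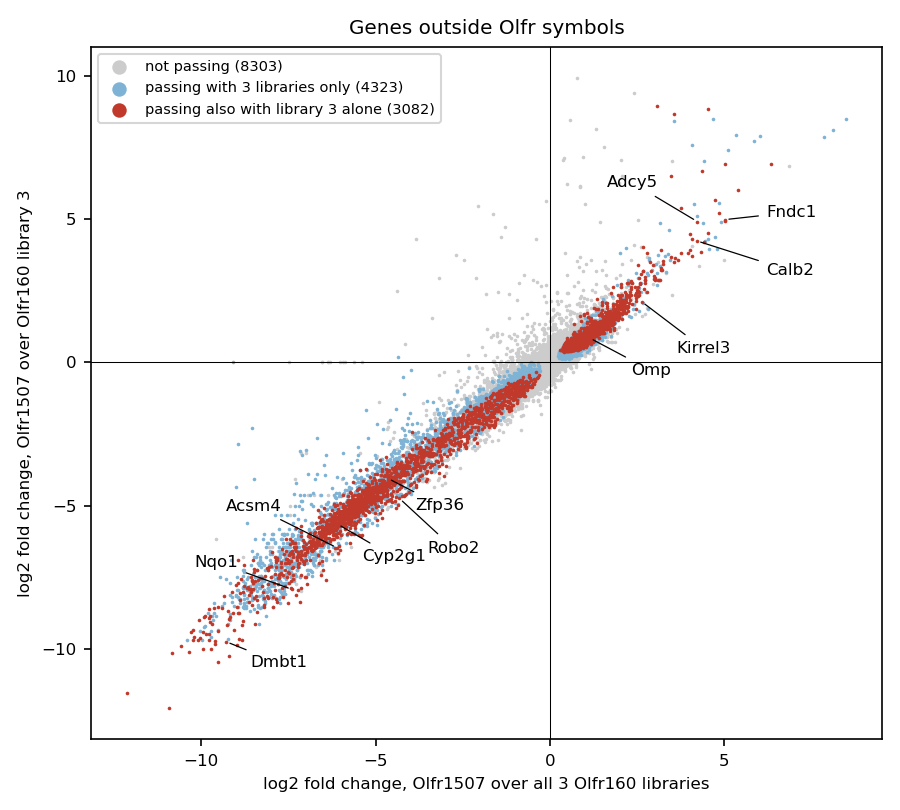
Each point is 1 of the 15708 tested genes; the x axis is the log2 fold change of Olfr1507 over all 3 Olfr160 libraries and the y axis that over Olfr160 library 3 alone, red for the 1410 higher and 1672 lower genes passing in both fits. The called genes lie along the diagonal, and the lower genes reach further from 0 than the higher ones.

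How the libraries were scaled moved the balance of higher and lower calls. The default scaling (TMM) placed the median of all tested genes at a log2 fold change of -0.073, total library size at -0.49 and scaling to the mature neuron markers at -1.60. With library size alone 1342 genes were higher and 5699 lower (19.1% of calls higher, against 45.9%), and with neuron scaling 124 and 13037 (0.942% higher). Both of these scalings move genes down in Olfr1507, so a lower gene could hardly fail with them. Passing with them is thus a test for the higher genes only. With all 3 scalings and library 3, 107 genes stayed higher and 1672 lower. Lists of genes are therefore given by their counts, to be read beside the 21.6% higher and 25.5% lower of all tested genes. Their median is given too and, in places, its distance from the median of all tested genes. A scaling shifts all genes nearly alike, so that distance changes little by construction and its stability supports nothing. The number of lists with more higher than lower members fell from 12 of 35 to 2 with library size and to 0 with neuron scaling.

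Genes of calcium and cyclic AMP signalling were among the 15 named by rule for the largest excess in the Olfr1507 libraries. Calb2 (chromosome 8, 110137502 to 110168210, mm10), which encodes the calcium-binding protein calretinin, stood at 5945, 6385 and 4984 CPM in the Olfr1507 libraries and 328, 305 and 306 CPM in the Olfr160 libraries. All 3 Olfr1507 libraries were far above all 3 Olfr160 libraries, which were nearly alike, with a log2 fold change of 4.21 ± 0.19 (SE, n = 3 and 3, adjusted p = 3.79e-06) and of 4.24 against library 3 (adjusted p = 0.000289). On the length-scaled TPM scale Calb2 reached 8827 TPM in Olfr1507 and 549 TPM in Olfr160. It stood at 189 CPM in the third group of the series, cells sorted from Olfr73-IRES-GFP mice. Adcy5, an adenylyl cyclase that calcium inhibits, stood at 75.9, 60.6 and 73.1 CPM in the Olfr1507 libraries and 4.77, 4.16 and 2.31 CPM in the Olfr160 libraries. Its lowest value was in Olfr160 library 3, and its log2 fold change was 4.22 ± 0.46 (adjusted p = 0.000119). Fndc1, which encodes a protein with fibronectin type III domains, had the largest log2 fold change of the 15, with 56.9, 59.4 and 52.5 CPM in the Olfr1507 libraries and 1.83, 1.62 and 1.78 CPM in the Olfr160 libraries and a log2 fold change of 5.01 ± 0.80 (adjusted p = 0.00103).

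The other 12 were of mixed function. They included Cidea, known for its part in lipid droplet growth, at 320.3, 307 and 332 CPM in the Olfr1507 libraries and 29.1, 25.0 and 25.6 CPM in the Olfr160 libraries. Every Olfr160 library was far below every Olfr1507 library (log2 fold change 3.59 ± 0.22, adjusted p = 1.12e-05). Cpn1, the catalytic subunit of carboxypeptidase N, had a log2 fold change of 3.67, Lrrn2 (a neuronal leucine-rich repeat protein) of 4.08, Capn8 (a calpain) of 4.08, Afap1l2 (an actin filament-associated protein) of 4.02, Krt80 (a keratin) of 3.75, Cygb (cytoglobin) of 3.46, Mdga2 (a neuronal adhesion protein) of 3.25, Dnaic2 (an axonemal dynein chain) of 3.24 and Rin1 (a Ras effector) of 3.22. Vcp-rs, at 3.95, is a Vcp-related sequence that can share reads with Vcp and is uncertain. The rule took only genes passing with library 3. All 15 also passed with library size alone and with neuron scaling. Their changes were picked as the largest and exceed the shift that these scalings make, so passing was largely fixed in advance.

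Known markers of dorsal neurons were lower in Olfr1507. Nqo1, a quinone oxidoreductase whose expression marks dorsal neurons, stood at 1.73, 7.76 and 3.07 CPM in the Olfr1507 libraries and 449, 672 and 1071 CPM in the Olfr160 libraries. Every Olfr160 library was far above every Olfr1507 library, and the Olfr160 libraries stood in the order of their tagged receptor share, library 3 highest. The log2 fold change was -7.39 ± 0.61 (adjusted p = 2.96e-05) and -7.92 against library 3 (adjusted p = 0.000294). Acsm4, an acyl-CoA synthetase also known as a dorsal marker, stood at 3.13, 9.18 and 4.91 CPM in the Olfr1507 libraries and 273, 409 and 525 CPM in the Olfr160 libraries and followed the same order (log2 fold change -6.10 ± 0.42, adjusted p = 1.59e-05). Robo2, the receptor for Slit guidance cues in dorsal axons, stood at 8.85, 17.9 and 7.82 CPM in the Olfr1507 libraries and 153, 232 and 314 CPM in the Olfr160 libraries, without overlap and with the highest value in library 3 (log2 fold change -4.32 ± 0.37, adjusted p = 3.6e-05). Of the 7 tested dorsal list members 4 were lower and 1, Ncam1, was higher (median -4.32). Ncam1, at 0.66 (adjusted p = 0.0358), did not pass with library 3 (0.25) or with library size (0.25) and turned to -0.79 with neuron scaling. Its call was also lost without Olfr1507 library 1 or 2 or Olfr160 library 1 or 2, with log2 fold changes of 0.61, 0.61, 0.44 and 0.66. The fourth lower member, Cbr2, is also a sustentacular marker.

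Known ventral markers differed in both directions. Nrp2, a semaphorin receptor of ventral axons, stood at 134, 130.3 and 137 CPM in the Olfr1507 libraries and 27.4, 35.0 and 25.4 CPM in the Olfr160 libraries, with no overlap and a log2 fold change of 2.19 ± 0.30 (adjusted p = 0.000423; 2.39 against library 3, adjusted p = 0.0129). With neuron scaling Nrp2 stood at 0.66 and did not pass (adjusted p = 0.0873). Ncam2, the ventral adhesion molecule OCAM, stood at 38.8, 30.9 and 30.6 CPM in the Olfr1507 libraries and 14.1, 24.3 and 14.4 CPM in the Olfr160 libraries. The groups did not overlap, but Olfr160 library 2 was close to Olfr1507 and the difference did not pass (log2 fold change 0.93 ± 0.38, adjusted p = 0.0688); it did pass without that library (1.23, adjusted p = 0.0454) and in a fit of only the 6 libraries compared (0.89, adjusted p = 0.0162). The nuclear factors Nfia and Nfib, known to act in ventral neurons, were higher by 0.68 (adjusted p = 0.00768) and 0.69 (adjusted p = 0.0098) on the log2 scale and passed with library 3, but stood at 0.25 and 0.27 with library size, where neither passed, and at -0.88 and -0.87 with neuron scaling. Nfix, at 22.7, 22.9 and 23.2 CPM in the Olfr1507 libraries and 21.0, 21.7 and 13.9 CPM in the Olfr160 libraries, did not pass (adjusted p = 0.375) and its sign turned with library size alone (-0.15). Of the 8 tested ventral list members 4 were higher and 2, Fmo2 and Gstm5, were lower; the median of 0.69 became -0.87 with neuron scaling.

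**Figure D2:**
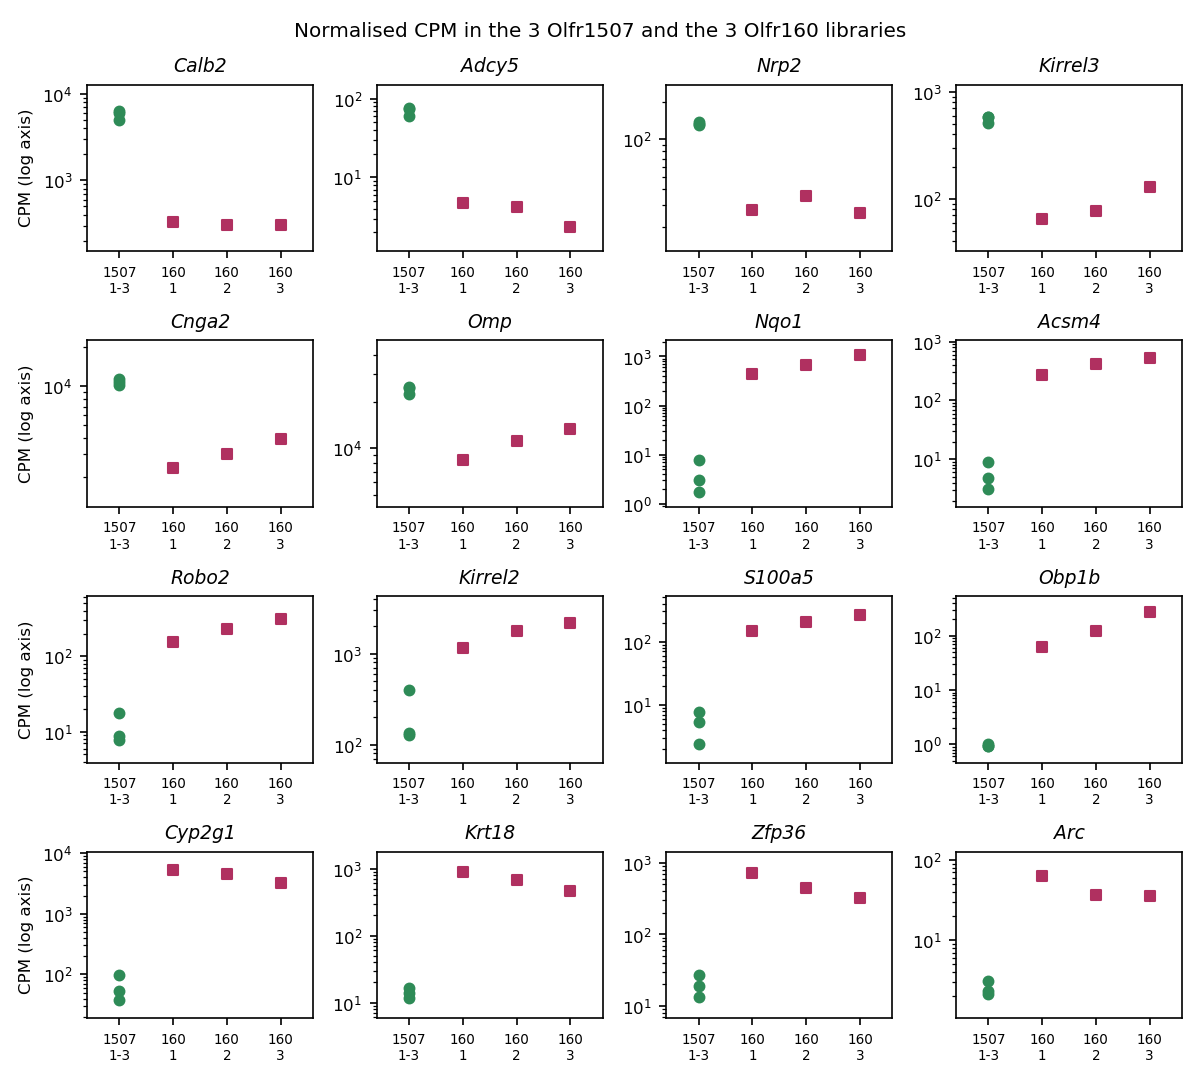
Normalised CPM (log axis, a scale for each gene) in the 3 Olfr1507 libraries (circles, stacked at left) and in Olfr160 libraries 1, 2 and 3 (squares). Calb2 and Adcy5 do not come nearer to Olfr1507 in Olfr160 library 3 and Omp and Cnga2 do; Nqo1, Acsm4, Robo2, Kirrel2, S100a5 and Obp1b are highest in Olfr160 library 3, and Cyp2g1, Krt18, Zfp36 and Arc are lowest there among the Olfr160 libraries.

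Genes known to follow the level of activity in these neurons differed in both directions. Kirrel3 and Kirrel2 encode adhesion molecules that sort axons into glomeruli and are known to mark different sets of neurons. Kirrel3 stood at 585, 577 and 506 CPM in the Olfr1507 libraries and 65.0, 76.2 and 128 CPM in the Olfr160 libraries, without overlap (log2 fold change 2.63 ± 0.29, adjusted p = 0.000139). Kirrel2 stood at 127, 133 and 403 CPM in the Olfr1507 libraries and 1162, 1772 and 2151 CPM in the Olfr160 libraries; Olfr1507 library 3 was above the other two of its group but below every Olfr160 library (log2 fold change -2.94 ± 0.51, adjusted p = 0.00162). S100a5, a calcium-binding protein raised by odorant activity, stood at 2.43, 5.35 and 7.59 CPM in the Olfr1507 libraries and 146, 207 and 264 CPM in the Olfr160 libraries. Its groups were far apart, with the highest value in Olfr160 library 3 (log2 fold change -5.32 ± 0.55, adjusted p = 9.45e-05). Both Kirrel genes and S100a5 passed with library 3 and kept their sign with every scaling. The other scalings move genes down, so for Kirrel2 and S100a5, which were lower, the kept sign tests nothing.

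Immediate early genes, which are transcribed within minutes of stimulation or of tissue handling, were lower in Olfr1507 or did not pass. Of 26 tested members 15 were lower, 0 were higher and 11 passed again with library 3; the median was -1.86, which lay -1.79, -1.81 and -1.87 from the median of all tested genes with the default scaling, library size and neuron scaling. Zfp36, an RNA-binding protein that destabilises messages, stood at 13.4, 26.8 and 19.0 CPM in the Olfr1507 libraries and 718, 452 and 328 CPM in the Olfr160 libraries. Every Olfr1507 library was far below every Olfr160 library, and Olfr160 library 3 was the lowest of its group (log2 fold change -4.65 ± 0.53, adjusted p = 0.000159). Arc, a neuronal capsid-like protein, stood at 2.32, 3.10 and 2.12 CPM in the Olfr1507 libraries and 63.4, 37.1 and 35.8 CPM in the Olfr160 libraries (log2 fold change -4.16 ± 0.38, adjusted p = 4.78e-05), and the stress gene Ier3 at 1.24, 1.58 and 0.949 CPM in the Olfr1507 libraries and 73.5, 61.0 and 32.4 CPM in the Olfr160 libraries (log2 fold change -5.43 ± 0.42, adjusted p = 2.35e-05), both without overlap. Nr4a1, an orphan nuclear receptor, differed by -2.98 and Dusp1, a phosphatase of MAP kinases, by -1.32. Fos itself stood at 1401, 1249.7 and 1804 CPM in the Olfr1507 libraries and 2473, 1959.7 and 1457 CPM in the Olfr160 libraries. Its groups overlapped and it did not pass (log2 fold change -0.40 ± 0.21, adjusted p = 0.143; 0.03 against library 3). It passed without Olfr160 library 3 (-0.58, adjusted p = 0.0356) and with DESeq2 (-0.51, adjusted p = 0.0416), and stood at -0.84 with library size and -2.0 with neuron scaling, passing with both. Of 26 members 14 were lower by at least 0.5 on the log2 scale in Olfr160 library 3 than in library 1, as were 19 of the 29 sustentacular and gland markers, whose part in this result was not tested.

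Promoters of 3 of these lower genes are shown because each holds a sequence through which such genes are known to respond. They are from RefSeq (GRCm38.p6), 120 bases within the 250 before the gene start, all on the minus strand: Btg2 at chr1:134079262-134079381, Dusp1 at chr17:26508556-26508675 and Zfp36 at chr7:28379229-28379348. Capitals mark the cyclic AMP response element TGACGTCA in Btg2 and Dusp1, 166 and 143 bases before the start, and a CArG box, the serum response element core, in Zfp36, 58 bases before the start.
Btg2: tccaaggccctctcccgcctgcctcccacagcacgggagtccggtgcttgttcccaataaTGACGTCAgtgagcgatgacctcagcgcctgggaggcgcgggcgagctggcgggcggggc
Dusp1: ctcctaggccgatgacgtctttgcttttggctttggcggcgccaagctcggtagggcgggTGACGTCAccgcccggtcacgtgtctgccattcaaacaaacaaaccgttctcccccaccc
Zfp36: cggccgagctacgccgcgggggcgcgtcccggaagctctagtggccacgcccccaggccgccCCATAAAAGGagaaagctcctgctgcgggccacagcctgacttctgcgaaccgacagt
Both strands were searched. TGACGTCA was present in 1.55% of 32851 promoters and in 3 of the 23 list genes with a promoter entry (Btg2, Dusp1 and Ppp1r15a), and a CArG box in 1.47% and in 3 (Egr2, Zfp36 and Dusp5). Ppp1r15a and Dusp5 did not pass. The 2 motifs do not overlap in the sequences shown. Btg2, an antiproliferative gene, stood at 89.6, 120.0 and 115 CPM in the Olfr1507 libraries and 728, 521 and 363 CPM in the Olfr160 libraries (log2 fold change -2.31 ± 0.30, adjusted p = 0.00033), and Egr2, a zinc finger factor, at 2.48, 5.88 and 8.82 CPM in the Olfr1507 libraries and 159, 107 and 73.2 CPM in the Olfr160 libraries (log2 fold change -4.30 ± 0.55, adjusted p = 0.000302). In each gene the 3 Olfr1507 libraries lay below the 3 Olfr160 libraries.

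Genes of the transduction machinery were higher in Olfr1507 with the default scaling, whereas neuron scaling sets the summed counts of the marker list equal by construction. Of the 16 tested mature neuron markers 15 were higher, 0 were lower, 12 passed with library 3, and the median was 1.44 (1.03 with library size and 0.01 with neuron scaling); the exception was Slc17a6. Cnga2, the channel subunit that cyclic AMP opens, stood at 10261, 11354 and 10779 CPM in the Olfr1507 libraries and 2357, 3002 and 3948 CPM in the Olfr160 libraries. All Olfr160 libraries were lower, library 3 being nearest to Olfr1507 and library 1 farthest (log2 fold change 1.80 ± 0.18, adjusted p = 7.49e-05; 1.45 against library 3). Stoml3, a membrane protein of the cilia, had a log2 fold change of 1.87 (adjusted p = 7.68e-05), Adcy3, the cyclase of olfaction, of 1.60 (adjusted p = 0.000249) and Gnal, which encodes Golf, of 1.48 (adjusted p = 0.00083). Omp, the olfactory marker protein, stood at 24903, 22333 and 24591 CPM in the Olfr1507 libraries and 8344, 11197 and 13259 CPM in the Olfr160 libraries, without overlap (log2 fold change 1.13 ± 0.17, adjusted p = 0.000816). With neuron scaling 2 of the 16 were higher and 6 lower. Cnga2 (0.34) and Stoml3 (0.41) still passed, Omp turned to -0.34, and Adcy3 (0.15) and Gnal (0.04) no longer passed. In 15 of 16 markers Olfr160 library 3 exceeded library 1 by at least 0.5 on the log2 scale, in the order of the tagged receptor share, whose part in the result was not tested.

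Other genes of the cyclic AMP and calcium pathways divided by family member. Of 35 EF-hand calcium-binding proteins 11 were higher and 14 lower, with Calb2 and Necab3 (log2 fold change 3.10) at the upper end and S100a5, S100a16 (-6.38) and S100a11 (-6.95, from 4 counts over the Olfr1507 libraries) at the lower end. Of 40 G protein and RGS genes 7 were higher and 21 lower, among the latter Rgs12 (-3.40), a regulator that speeds the turn-off of G proteins. Of 20 phosphodiesterases 5 were higher and 8 lower (25% and 40%, against 21.6% and 25.5% of all tested genes). Pde4a, the phosphodiesterase of the neuron's cell body, stood at 2261, 2093 and 1818 CPM in the Olfr1507 libraries and 492, 538 and 867 CPM in the Olfr160 libraries, whereas Pde4b stood at 0.648, 2.18 and 1.28 CPM in the Olfr1507 libraries and 36.5, 37.5 and 22.8 CPM in the Olfr160 libraries. The 2 isoenzymes thus differed in opposite directions, at 1.70 (adjusted p = 0.000283; 0.25 with neuron scaling, where it did not pass) and -4.51 (adjusted p = 0.000118), and both passed with library 3.

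Genes of calcium stores and ion transport also differed in both directions. Orai2, a store-operated channel, was higher by 1.29 (adjusted p = 8.89e-05, and -0.20 with neuron scaling). The store release channel Itpr1 (-4.51), the pump Atp2b4 (-4.54) and the exchanger Slc8a1 (-2.79) were lower. Their list had 6 higher and 7 lower of 22 (27.3% and 31.8%), near the 21.6% and 25.5% of all tested genes. Of 33 chloride transport and carbonic anhydrase genes 8 were higher and 14 lower; Ano6, a scramblase, stood at 12.9, 18.6 and 15.3 CPM in the Olfr1507 libraries and 81.6, 82.1 and 90.4 CPM in the Olfr160 libraries, without overlap (log2 fold change -2.44 ± 0.15, adjusted p = 1.12e-05), and the epithelial genes Slc26a7 and Car12 differed by -5.56 and -6.19. Of 8 sodium-potassium ATPase genes 2 were higher and 5 lower, including the regulator Fxyd6 (-4.57).

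Kinesins and cytoplasmic dynein, the motors that carry cargo along microtubules, were the list with the largest number of members higher in Olfr1507. Of 53 tested genes 32 (60.4%) were higher, 6 lower and 15 did not pass, and 13 of the higher passed with library 3. The higher and lower counts were 13 and 13 with library size and 1 and 46 with neuron scaling. The median of 0.60 lay 0.67, 0.68 and 0.70 above that of all tested genes with the 3 scalings and was itself -0.90 with neuron scaling. Kif9, a kinesin of motile cilia, stood at 908, 886 and 923 CPM in the Olfr1507 libraries and 184, 179 and 234 CPM in the Olfr160 libraries, with no overlap (log2 fold change 2.19 ± 0.13, adjusted p = 1.11e-05). Kif3a, of the kinesin that builds cilia, differed by 1.06 (adjusted p = 0.00015; -0.45 with neuron scaling), while the dynein intermediate chain Dync1i1 was lower, at -3.73 (adjusted p = 3.54e-05). Of 46 tubulins and associated proteins 17 were higher and 17 lower. Tubb3 and Tubb2a, tubulins abundant in young neurons, stood at 212, 215 and 289 CPM in the Olfr1507 libraries and 656, 847 and 856 CPM in the Olfr160 libraries for Tubb3, without overlap, and differed by -1.72 and -2.36; Tppp and Tubb4b were higher by 1.76 and 1.11 (0.28, not passing, and -0.40 with neuron scaling).

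Lists of the secretory pathway and of protein turnover had more higher than lower members. Of 43 proteasome subunits 20 were higher and 4 lower, the latter Psme1, Psmb8, Psmb9 and Psmb10, subunits known to be induced by interferon; 12 higher and 0 lower ones passed with library 3. Psmc5, an ATPase of the proteasome base, stood at 486, 472 and 487 CPM in the Olfr1507 libraries and 250.5, 265 and 262 CPM in the Olfr160 libraries, without overlap (log2 fold change 0.89 ± 0.09, adjusted p = 5.65e-05). Of 53 genes of entry into the endoplasmic reticulum and N-glycosylation 19 were higher and 4 lower, with Tusc3 (an oligosaccharyltransferase subunit) at 2.01 and Rpn1 at 0.88, and of 41 COPI and COPII coat genes 17 were higher and 5 lower, with Sec24d at 0.90. The medians of these 3 lists were 0.34, 0.31 and 0.30; they turned to -0.08, -0.10 and -0.11 with library size and to -1.18, -1.19 and -1.22 with neuron scaling, where the members named here with changes under 1 had the opposite sign. Tusc3 stood at 0.52 there and did not pass. In the order of the lists above, higher and lower counts with library size were 3 and 8, 5 and 7, and 5 and 10, and with neuron scaling none of their members was higher. Lysosomal and V-ATPase genes had 20 higher and 17 lower of 53 (6 and 22 with library size and 0 and 52 with neuron scaling), and the proton pump subunits Atp6v1b1 (-5.64) and Atp6v0a4 (-6.25), known from acid-secreting epithelial cells, were among the lower.

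Herpud1, Trib3, Ddit3, Atf5 and Hspa5 are known from the unfolded protein response, a programme that also takes part in fixing the choice of receptor. They are described singly and do not stand for a list. Herpud1, which helps clear misfolded proteins from the endoplasmic reticulum, stood at 1362, 1446 and 1217 CPM in the Olfr1507 libraries and 325, 359 and 324 CPM in the Olfr160 libraries. The groups were well apart and Olfr160 libraries 1 and 3 were alike (log2 fold change 2.00 ± 0.10, adjusted p = 6.92e-06; 2.05 against library 3; 1.58 and 0.47 with library size and neuron scaling). Trib3, a target of the response chosen after its values were seen, stood at 157, 146 and 120.3 CPM in the Olfr1507 libraries and 51.3, 47.5 and 37.7 CPM in the Olfr160 libraries (log2 fold change 1.63 ± 0.20, adjusted p = 0.000259), and Ddit3, which encodes CHOP, at 63.7, 73.8 and 54.3 CPM in the Olfr1507 libraries and 29.1, 28.9 and 29.9 CPM in the Olfr160 libraries (log2 fold change 1.13 ± 0.16, adjusted p = 0.000499); neither overlapped. With neuron scaling Trib3 stood at 0.06 and did not pass, and Ddit3 turned to -0.40. Atf5, a transcription factor of this programme, was higher by 1.64 (adjusted p = 0.00201; 0.19 with neuron scaling, not passing) and the chaperone Hspa5 by 0.72 (adjusted p = 0.00491). Neither passed with library 3 (adjusted p = 0.0677 and 0.0674), and Hspa5 was 0.31 with library size, not passing, and turned to -0.79 with neuron scaling.

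Amino acid synthesis and tRNA charging genes had 23 higher and 10 lower of 50 (10 and 15 with library size and 1 and 43 with neuron scaling). Gpt2, a mitochondrial aminotransferase, stood at 236, 239.6 and 257 CPM in the Olfr1507 libraries and 49.2, 47.1 and 63.7 CPM in the Olfr160 libraries, without overlap (log2 fold change 2.20 ± 0.16, adjusted p = 1.83e-05). The alanyl-tRNA synthetase Aars and Aldh18a1, of proline synthesis, were higher by 0.90 and 1.04, while Phgdh, the first enzyme of serine synthesis, stood at 0.378, 0.0990 and 0.167 CPM in the Olfr1507 libraries and 44.7, 42.5 and 22.4 CPM in the Olfr160 libraries. Every Olfr1507 library of Phgdh lay far below every Olfr160 library (log2 fold change -7.47 ± 0.49, adjusted p = 1.32e-05). The median of 0.31 lay 0.39 above that of all tested genes and became -0.11 with library size and -1.18 with neuron scaling, where Aars (-0.60) and Aldh18a1 (-0.45) turned. Promoters of Herpud1 and Aars are shown because both hold TTGCATCA, a form of the element that the stress factor ATF4 is known to bind, 112 bases before the gene start. They are RefSeq sequences (GRCm38.p6) on the plus strand, at chr8:94386257-94386376 and chr8:111033670-111033789, with the element in capitals.
Herpud1: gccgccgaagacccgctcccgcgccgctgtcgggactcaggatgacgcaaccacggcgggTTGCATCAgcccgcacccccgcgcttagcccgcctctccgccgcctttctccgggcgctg
Aars: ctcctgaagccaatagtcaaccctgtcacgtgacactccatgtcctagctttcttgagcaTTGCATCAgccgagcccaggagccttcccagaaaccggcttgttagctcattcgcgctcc
Searched on both strands, TTGCATCA was present in 0.791% of 32851 promoters and in 7 of the 37 genes of the amino acid list with a promoter entry. Of these 7, Aars, Got1 and Tars were higher with the default scaling, Pycr1 and Slc7a11 were lower, and Slc7a7 and Chac1 did not pass, so genes with the element differed in both directions.

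Most citric acid cycle genes were higher in Olfr1507 with the default scaling. Of 25 tested genes 17 were higher and 2 lower (counts of 7 and 5 with library size and 0 and 23 with neuron scaling), the 2 lower ones being Pcx and the cytosolic enzyme Idh1. Cs, citrate synthase, stood at 828, 729 and 712 CPM in the Olfr1507 libraries and 313, 424 and 470.1 CPM in the Olfr160 libraries, without overlap (log2 fold change 0.91 ± 0.15, adjusted p = 0.00117; -0.57 with neuron scaling). Idh1 stood at 20.4, 17.9 and 23.6 CPM in the Olfr1507 libraries and 304, 260.1 and 187 CPM in the Olfr160 libraries (log2 fold change -3.60 ± 0.25, adjusted p = 1.52e-05), also without overlap. The median of the list, 0.48, lay 0.56 above that of all tested genes and was 0.06 with library size and -1.03 with neuron scaling. Of 71 nuclear oxidative phosphorylation genes 17 (23.9%, near the 21.6% of all tested genes) were higher, 2 were lower (2 and 11 with library size and 0 and 68 with neuron scaling) and 4 of the higher passed with library 3, with Uqcrc1 of complex III at 1.02; the median of 0.28 became -0.14 and -1.28 with the other scalings.

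Glycolysis genes differed in both directions. Of 39 tested, 13 were higher and 11 lower (counts of 7 and 15 with library size and 1 and 32 with neuron scaling). These were 33.3% and 28.2%, against 21.6% and 25.5% of all tested genes. Hk2, a hexokinase of the first step, stood at 1.19, 0.759 and 1.00 CPM in the Olfr1507 libraries and 41.3, 42.6 and 37.3 CPM in the Olfr160 libraries, without overlap (log2 fold change -5.37 ± 0.54, adjusted p = 8.18e-05). Pfkfb4 and Pgam1 were higher by 1.59 and 1.23 (0.11, not passing, and -0.24 with neuron scaling), and Aldoc and Ldha were lower, at -3.15 and -3.61. Of 45 fatty acid genes 8 were higher, with Acsl6, a brain acyl-CoA synthetase, at 1.35 (-0.12 with neuron scaling), and 22 lower, with the synthase Fasn at -3.79. Of 44 antioxidant genes 7 were higher and 15 lower. Prdx6, a peroxiredoxin, stood at 64.4, 109.8 and 84.8 CPM in the Olfr1507 libraries and 3788, 2814 and 1688 CPM in the Olfr160 libraries, without overlap and lowest in library 3 among the Olfr160 libraries (log2 fold change -5.00 ± 0.38, adjusted p = 2.18e-05), and catalase (Cat) differed by -3.19. The sustentacular share was 5.53% in Olfr160 library 1 and 3.13% in library 3, and its part in the lower values was not tested.

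**Figure D3:**
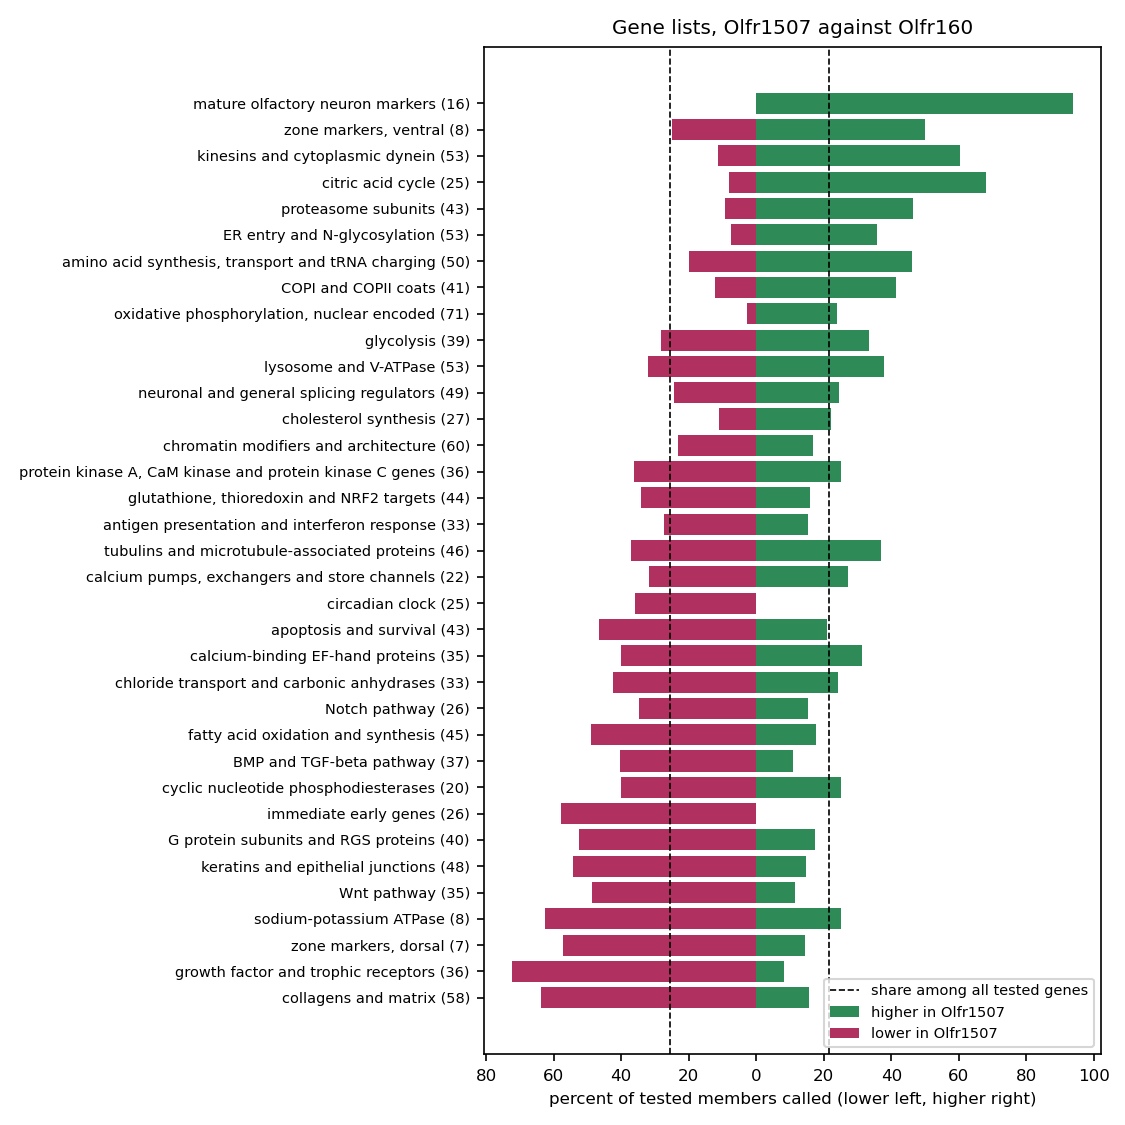
For 35 gene lists (tested members in brackets), the percent of tested members called higher (right) and lower (left) in Olfr1507, ordered by the list median; dashed lines mark the 21.6% and 25.5% of all tested genes. Mature neuron markers, kinesins and the citric acid cycle reach furthest to the right and growth factor receptors and matrix genes furthest to the left; with neuron scaling no list has more higher than lower members.

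Chromatin and RNA-processing lists were near the background as a whole, with a few strong members. Of 60 chromatin genes 10 were higher and 14 lower (median -0.01). Hdac11, a histone deacetylase, stood at 633, 619 and 651 CPM in the Olfr1507 libraries and 173, 174 and 174 CPM in the Olfr160 libraries; the Olfr160 libraries were almost equal and all below the others (log2 fold change 1.87 ± 0.15, adjusted p = 2.84e-05; 0.34 with neuron scaling, not passing). Sirt2 and Hdac6, deacetylases that act on tubulin, were higher by 1.25 and 1.17 (-0.26 and -0.36 with neuron scaling). Hdac2 and Smchd1, a protein of the inactive X chromosome, were lower, at -2.34 and -2.16. Of 49 splicing regulators 12 were higher and 12 lower. Celf3, a neuronal splicing factor, stood at 21.5, 18.8 and 20.7 CPM in the Olfr1507 libraries and 94.1, 99.4 and 145 CPM in the Olfr160 libraries, highest in library 3 (log2 fold change -2.48 ± 0.20, adjusted p = 2.84e-05), and Elavl4 was lower, at -1.40, whereas Celf4 was higher by 1.24 (-0.28 with neuron scaling).

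Of 25 circadian clock genes 0 were higher and 9 lower, among them the repressor Nr1d1 at 27.1, 24.7 and 13.7 CPM in the Olfr1507 libraries and 142, 91.8 and 71.8 CPM in the Olfr160 libraries (log2 fold change -2.22 ± 0.30, adjusted p = 0.000408) and the factor Hlf at -5.92. The Nr1d1 libraries did not overlap, and Olfr160 library 3 was the lowest of its group. Of 43 apoptosis genes 9 were higher, with Bok at 1.70 (0.19 with neuron scaling, not passing), and 20 lower. Of 33 antigen presentation and interferon genes 5 were higher and 9 lower (15.2% and 27.3%, against 21.6% and 25.5% of all tested genes). Ifi27 stood at 207, 186 and 193 CPM in the Olfr1507 libraries and 38.9, 32.8 and 21.4 CPM in the Olfr160 libraries, without overlap (log2 fold change 2.65 ± 0.24, adjusted p = 4.91e-05). Ifitm2 was lower, at -6.25.

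Lists of growth factor receptors and of matrix genes had medians far below that of all tested genes. Of 36 growth factor and trophic receptor genes 26 were lower and 3 higher (median -4.35, or -4.19 with 3 counts in place of 0), and 13 of the lower passed with library 3. The receptors Tyro3 and Egfr differed by -5.71 and -6.30, and Sort1, which sorts neurotrophins, was higher by 1.50 (0.02 with neuron scaling, not passing). Of 35 Wnt pathway genes 17 were lower and 4 higher. Wls, the carrier of secreted Wnt proteins, stood at 10.5, 15.5 and 11.1 CPM in the Olfr1507 libraries and 507, 439 and 268 CPM in the Olfr160 libraries, without overlap (log2 fold change -5.03 ± 0.42, adjusted p = 3.26e-05). Of 37 BMP and TGF-beta genes 15 were lower, with the ligands Tgfb2 at -4.66 and Gdf11 at -5.13, and 4 higher; of 26 Notch genes 9 were lower and 4 higher, with the target Heyl higher by 2.16 (0.56 with neuron scaling, not passing). The shares of sustentacular, basal and stromal markers given above were likewise lower in Olfr1507, and their part in these results was not tested.

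Of 58 collagen and matrix genes 37 were lower and 9 higher, and of 48 keratin and junction genes 26 were lower and 7 higher. Krt18, a keratin of simple epithelia, stood at 11.7, 16.6 and 13.9 CPM in the Olfr1507 libraries and 891, 679.6 and 469 CPM in the Olfr160 libraries, without overlap and lowest in library 3 among the Olfr160 libraries (log2 fold change -5.59 ± 0.43, adjusted p = 2.35e-05). Krt8, its partner, Cdh1 (E-cadherin), Lamb3 (a laminin) and Dcn (decorin) were lower, at -5.40, -5.98, -6.26 and -5.81. Fndc1, Mmp2 (2.73), a gelatinase, and Krt80 were among the counterparts higher in Olfr1507. For comparison, the supporting cell genes Cyp2g1 and Sec14l3 stood at 37.7, 99.0 and 53.3 CPM in the Olfr1507 libraries and 5284, 4574 and 3170.0 CPM in the Olfr160 libraries for Cyp2g1 and differed by -6.10 and -5.98, with 28 of 29 sustentacular and gland markers lower and 27 of them passing with library 3. Sult1d1 was the only one higher.

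The 15 genes with the largest deficit in Olfr1507, outside the marker lists, included several known from glands and other epithelia. Miat, a long non-coding RNA of neurons, had 2 counts over the Olfr1507 libraries and 1803 over the Olfr160 libraries, where it stood at 30.9, 20.5 and 29.1 CPM; the ratio of 885 had a counting interval of 245 to 7310. It stood at 0.642 CPM in Olfr73. Dmbt1, a mucosal scavenger receptor, stood at 0.0540, 0.198 and 0.0558 CPM in the Olfr1507 libraries and 1.64, 124 and 105 CPM in the Olfr160 libraries. Olfr160 library 1 lacked most of the Dmbt1 signal of libraries 2 and 3, and against library 1 alone the difference did not pass (-3.87, adjusted p = 0.102), nor did it with limma-voom (-7.95, adjusted p = 0.395). Gp2, a mucosal glycoprotein, stood at 116, 18.9 and 25.6 CPM in Olfr160, with library 1 far above the others, and did not pass with limma-voom (adjusted p = 0.117). The remaining 12 were Nqo1 and Phgdh, Obp1b and Lcn11 (secreted lipocalins), Wfdc18, Ogn, Cyp4a12b, Aox3 (an aldehyde oxidase), H2-Eb1 (antigen presentation), Dsc3 (a desmosomal cadherin), Gulp1 and Lgalsl, with log2 fold changes from -7.87 in Ogn to -7.09 in Aox3. The rule again took only genes passing with library 3. All 15 passed with the 3 scalings, which for lower genes was nearly fixed in advance. The marker shares of gland, immune and stromal cells given above moved in the same direction, and their part in these results was not tested.

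Within the Olfr160 group, the genes lower in Olfr1507 divided by how library 3 compared with library 1, the libraries with the most and the least of the tagged receptor. As a description with no test, 2301 of the 4008 lower genes (57.4%) were lower in library 3 than in library 1 by at least 0.5 on the log2 scale, with 0.1 CPM added to each, and 291 (7.26%) were higher; among all tested genes these shares were 26.1% and 16.4%. Among the genes higher in Olfr1507, 914 (26.9%) were higher in library 3 than in library 1 by that margin and 106 (3.12%) lower. The 291 genes higher in library 3 and the 2301 lower in it were divided by their level in that library. Whether they passed with library 3 is therefore not compared. The 291 included Nqo1, Acsm4, Robo2, S100a5, Kirrel2 and Celf3, and others that were picked after their values were seen. Lrrc3b stood at 2.54, 5.61 and 3.96 CPM in the Olfr1507 libraries and 154, 259.5 and 389 CPM in the Olfr160 libraries, Mcoln3, a lysosomal calcium channel, at 11.3, 14.2 and 12.9 CPM in the Olfr1507 libraries and 166, 199 and 308 CPM in the Olfr160 libraries, and Tmtc2 at 5.24, 5.74 and 5.64 CPM in the Olfr1507 libraries and 52.7, 92.0 and 128 CPM in the Olfr160 libraries. In all 3 of these genes the groups did not overlap and library 3 was the highest, with log2 fold changes of -6.02, -4.13 and -4.03. Pcp4l1 was likewise highest in library 3, with 401, 965 and 1305 CPM in Olfr160.

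Genes higher in library 3 than in library 1 were not limited to neuronal ones. Obp1b and Obp1a, odorant-binding proteins of nasal glands, stood at 62.6, 122 and 270.3 CPM and 35.7, 79.3 and 188 CPM in Olfr160 libraries 1 to 3, and the gland protein Bpifb3 at 186, 488 and 1081 CPM. These secreted gland products were at most 11.9 CPM in Olfr1507. Thus library 3, where the Olfr160 share was largest and the sustentacular share lowest, had the highest level of these gland transcripts in its group. Of the 291 genes higher in library 3, 13 were in the lists of markers of other cells, and of the 2301 lower in it, 68 were. Listed markers were thus few in both. More of them were lower in library 3 (68) than higher (13), as for the lower genes as a whole.

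**Figure D4:**
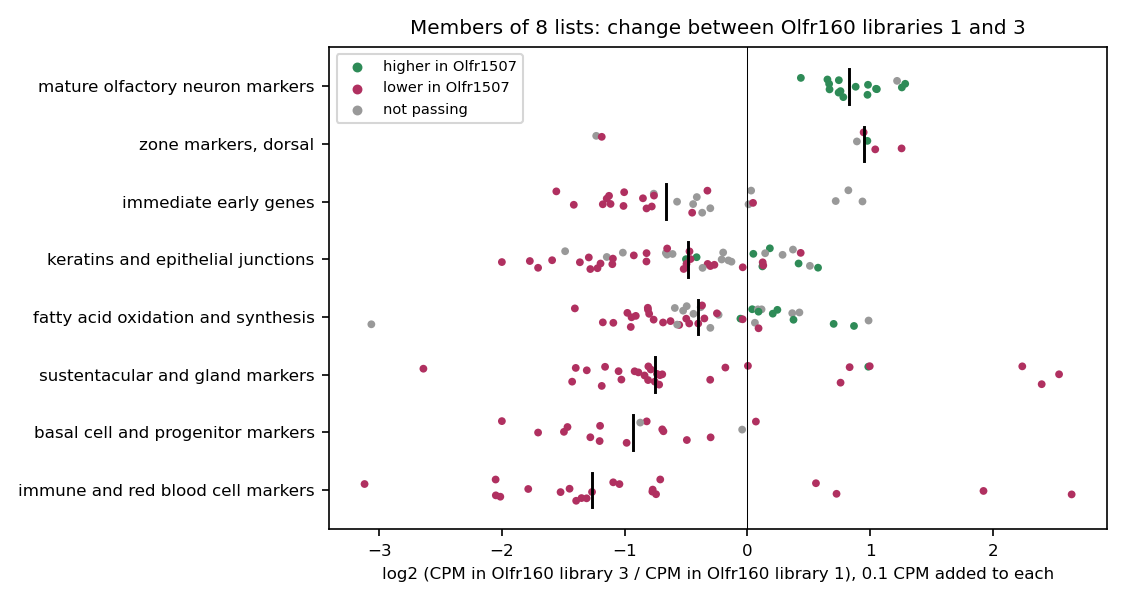
Each point is a tested member of 1 of 8 lists, placed by the log2 ratio of its CPM in Olfr160 library 3 to that in library 1 (0.1 CPM added to each), coloured by its call in Olfr1507 against Olfr160; black bars are list medians. Mature neuron markers and most dorsal zone markers lie above 0, and most basal, immune and sustentacular markers and many immediate early genes below it, although 7 gland or sustentacular markers lie beyond 0.5 on the upper side.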

How the data were processed

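RNA of cells sorted from the olfactory epithelium was measured in 3 Olfr1507 and 3 Olfr160 libraries, with 3 Olfr73 libraries in the same fit for the estimate of the spread. Per the submitters' processing notes, the authors used STAR 2.6.1, RSEM 1.3.1, DESeq2 (no version given) and mm10. Which annotation release they used is not given in the sources used here. Both deposited tables are by gene. The authors deposited RSEM expected counts and TPM (transcript levels scaled for length and depth). Between 4.06% and 5.54% of the expected counts of each library had a fractional part, so all were rounded to whole numbers. Totals ran from 17212807 to 36230606 counts per library. A count of 0 was bounded by 3 counts, or 0.0828 to 0.174 CPM (counts relative to the library total). The 95% Wilson intervals of the Olfr160 share of Olfr counts were 2.01% to 2.16%, 4.45% to 4.63% and 9.96% to 10.3% in libraries 1 to 3. Intervals and floors cover counting error only.

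Genes were tested with edgeR 4.0.16 in R 4.3.3: filterByExpr by group, TMM scaling, a robust quasi-likelihood F test on a means model of the 9 libraries, and Benjamini-Hochberg adjustment over all 16399 tested genes, 691 of them with Olfr symbols. Standard errors were obtained as the absolute log2 fold change over the root of F. CPM values are scaled by TMM. The fit with Olfr160 library 3 alone used the same genes. On simulated counts of 15791 genes for the Olfr1507 and Olfr160 comparison, 47% of 2-fold and 90% of 4-fold changes were called, with 7 false among 144 calls. The simulation changed few genes, as many up as down. It therefore says nothing of false calls where 47.1% of genes differ and the scaling is in question. The alternatives were other scalings, filters and thresholds, DESeq2 1.42.0, limma 3.58.1 on voom values and on log2(TPM + 1) or log2(TPM + 0.1), a replicate block, the 6 libraries compared alone, and libraries left out. The replicate numbers were not taken to pair the samples: deviations of same-numbered libraries from their group means correlated at -0.228, 0.008 and -0.016.

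The 43 gene lists (35 of pathways and families, 8 of markers of other cells, 1563 genes in all, of which 7 were not matched in the table and 1382 were tested) and the comparison itself were chosen with earlier results of these data known. No list was tested as a set. The rule for naming genes took, in each direction, the 15 largest changes passing in both fits with a mean of 20 CPM or more in the group with more RNA and separate ranges in the groups, outside gene models and the marker lists, then from each list the 5 members with the smallest adjusted p, and a few genes known from this tissue. It gave 249 genes, of which a part is named here. That part was chosen with the values in view, as were the genes outside the rule: Aars, Acsl6, Aldh18a1, Bpifb3, Btg2, Cs, Egr2, Fez1, Lrrc3b, Mcoln3, Obp1a, Pcp4l1, Pfkfb4, Pgam1, Sort1, Supt16, Tmtc2, Trib3 and the list members named without values. Coordinates are from GENCODE M21, in which 98.7% of the 142604 transcripts of the table were found. Promoters are from RefSeq. A few genes that the rule gave are not reported here.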

Additional observations from a re-analysis of the deposited data

How the results depend on the processing

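The calls depended most on scaling. Higher counts were 1342 with library size and 124 with neuron scaling, against 13037 lower with the latter; with library 3 alone they were 494 and 145 higher and 8608 lower. Limma gave 2114 higher genes on log2(TPM + 1) and 2098 on log2(TPM + 0.1). An adjusted p of 0.01 left 2170 higher and 2517 lower, a log2 fold change of at least 1 left 1050 higher, and a filter of 5 CPM in 3 libraries, which tests fewer genes, left 2591 lower. With 1 Olfr160 library, and so fewer samples, higher and lower counts were 1422 and 1691 with library 3, 2767 and 2571 with library 1, and 2027 and 2223 with library 2, the last 2 settings chosen after seeing the data. Leaving out 1 library in turn gave 2689 to 3281 higher and 3198 to 3608 lower. The replicate block gave 3188 and 3696, and the numbers were not taken to mark a shared origin. DESeq2 gave 3075 and 4673. Of 35 lists, 12 had more higher than lower members, against 2 with library size, 0 with neuron scaling, 7 and 6 on the 2 TPM scales and 5 with the fold minimum. Of 141 named genes, 23 reversed with neuron scaling: Omp -0.34, Ncam1 -0.79, Ncam2 -0.59, Nfia -0.88, Nfib -0.87, Nfix -1.29, Orai2 -0.20, Kif3a -0.45, Tubb4b -0.40, Rpn1 -0.61, Sec24d -0.60, Psmc5 -0.63, Aars -0.60, Aldh18a1 -0.45, Pgam1 -0.24, Cs -0.57, Acsl6 -0.12, Uqcrc1 -0.48, Sirt2 -0.26, Hdac6 -0.36, Hspa5 -0.79, Ddit3 -0.40 and Celf4 -0.28. Nfix was -0.15 with library size and Fos 0.027 against library 3. The cause was not tested for any of these. No named gene reversed under the other settings. Where a gene has few counts in Olfr1507, depth limits how large a deficit can be measured.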

Other observations

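A gene within 2 Mb of each tagged receptor was higher in Olfr1507, and both were chosen after their values were seen. Supt16, a subunit of the FACT complex that moves along chromatin, lies 291 kb from Olfr1507 on chromosome 14. It stood at 362, 345 and 362 CPM in the Olfr1507 libraries and 44.0, 42.6 and 46.7 CPM in the Olfr160 libraries. Each group was tight and the groups were far apart (log2 fold change 3.00 ± 0.10, adjusted p = 1.06e-06 by edgeR, n = 3 and 3), and the mean in Olfr73 was 49.7 CPM, near that of Olfr160. Fez1, an axonal kinesin adaptor, lies 830 kb from Olfr160 on chromosome 9 and stood at 44.3, 44.3 and 37.0 CPM in the Olfr1507 libraries and 4.29, 6.51 and 5.20 CPM in the Olfr160 libraries (log2 fold change 2.97 ± 0.23, adjusted p = 2.24e-05). Its libraries did not overlap either, and its mean in Olfr73 was 8.94 CPM. Within 2 Mb of Olfr1507, 37 genes were tested, of which 9 were higher and 11 lower (median log2 fold change -0.40). Within 2 Mb of Olfr160, 18 were tested, of which 5 were higher and 4 lower (median 0.02). These counts lay near the 21.6% higher and 25.5% lower of all tested genes. Larger changes in these windows went both ways, with Ccnb1ip1 at 6.02 (1.33 CPM in Olfr1507), Mmp14 at -7.33 and Vwa5a at -6.02.

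Cilia genes of the respiratory marker list were divided. Of 14 tested members 7 were higher in Olfr1507 (Ccdc40, Foxj1, Tekt1, Cfap126, Rsph1, Dynlrb2 and Ccdc39) and 5 lower, and the list median was 0.93 on the log2 scale. With library size 6 were higher and 5 lower, and with neuron scaling 0 were higher and 8 lower, with a median of -0.60. Foxj1, the master regulator of motile cilia, had 443, 589 and 301 counts in the Olfr1507 libraries against 179, 154 and 230 in Olfr160. The summed share of the whole list was lower in Olfr1507, at 0.218% to 0.225% against 0.418% to 0.755%. Most of that share in Olfr160 came from the list member Cyp2f2, with 233198 counts over the Olfr160 libraries and 4784 over the Olfr1507 libraries. The summed share thus does not describe the cilia genes.

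A pair of nuclear non-coding RNAs was lower in Olfr1507 with all Olfr160 libraries and did not pass with library 3. Xist, the RNA that coats the inactive X chromosome, stood at 14.1, 19.9 and 10.8 CPM in the Olfr1507 libraries and 118, 69.7 and 44.7 CPM in the Olfr160 libraries (log2 fold change -2.37 ± 0.45, adjusted p = 0.00267; -1.57 against library 3, adjusted p = 0.0626). The labels give no sex for any library. Malat1 stood at 865, 2368 and 3327 CPM in the Olfr1507 libraries and 12607, 3874 and 6839.9 CPM in the Olfr160 libraries (log2 fold change -1.83 ± 0.51, adjusted p = 0.0158; -1.65 against library 3, adjusted p = 0.0673). Its Olfr160 libraries were far apart, and without Olfr160 library 1 the difference was -1.29 (adjusted p = 0.0567).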
